A study of Mus musculus with 12 samples.

Results

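The genes of the GABA system are described here in the mouse striatum: the receptor subunits, the enzymes and transporters that make, move and break down the transmitter, and the scaffold proteins of its synapses. The members were 28 genes of the 55487 in the count files, of which 18 encode receptor subunits, chosen by symbol, and 10 are listed genes of GABA synthesis, transport, breakdown and scaffolding. The rule goes by gene names and uses no measured value, and it was written with earlier results of these data known. RNA of striatal tissue was sequenced from 12 mice, 3 in each of 4 groups. Double mutants (cGAS-KO; HD in the titles, Q175DN-cGAS-KO in the design text) carried the Huntington's disease knock-in allele and lacked cGAS. HD mice were zQ175 neo-deleted heterozygous knock-ins with cGAS present. The cGAS-KO mice were knockouts without the knock-in allele, and WT mice were C57BL/6J controls. The labels name no treatment, and do not say how old the mice were, of which sex, from how many litters, or which part of the cGAS gene was removed. The labels name no promoter or Cre line that would limit either allele to a cell type. The study asked whether loss of cGAS, the sensor of cytosolic DNA, modifies Huntington's disease in these mice.

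GABA is the main inhibitory transmitter of the striatum, where the projection neurons, which are most of its neurons, release it themselves. GABA-A receptors are chloride channels of 5 subunits, most often alpha and beta subunits with a gamma subunit, which sit mainly at synapses, or with the delta subunit, which sit outside synapses and carry a lasting (tonic) current. The delta subunit pairs with alpha4 in much of the forebrain. GABA-B receptors couple to G proteins and need one product each of Gabbr1 and Gabbr2. The enzymes encoded by Gad1 and Gad2 make GABA from glutamate, the product of Slc32a1 loads it into vesicles, transporters of the Slc6a family take it up again, and those of Abat and Aldh5a1 degrade it.

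Deposited counts summed to between 59195327 and 72765623 per library, and the members took between 0.417% and 0.517% of a library's counts. Levels are given as CPM, counts scaled to a common library size after TMM adjustment. Htt, whose product is the disease protein, had a log2 change of -0.32 ± 0.08 in HD against WT libraries (SE; edgeR adjusted p = 0.0389) and of -0.33 ± 0.08 in double mutants against cGAS-KO libraries (edgeR adjusted p = 0.03). Cgas had a change of -0.86 ± 0.24 in cGAS-KO against WT libraries (edgeR adjusted p = 0.919) and of -0.16 ± 0.23 in double mutants against HD libraries (edgeR adjusted p = 0.856), and with the removed part unknown these counts do not check the knockout labels. The summed level of 12 markers of striatal projection neurons was 1680 to 1731 CPM in double mutants, 973 to 1992 CPM in HD, 3822 to 4736 CPM in cGAS-KO and 3023 to 4317 CPM in WT libraries, and 10 of the 12 were called lower in each knock-in comparison. Projection neuron markers were thus present in every library and lower with the knock-in allele. In bulk tissue, fewer cells of a type and less RNA per cell cannot be told apart, and this holds for each result given here. WT replicate 1 stood apart from its group in markers of neighbouring tissue, with 159 CPM of 9 cortical markers against 607 and 713 CPM in the other WT libraries and 1922 CPM of 6 choroid plexus markers against 143 and 71.1 CPM. In these sums it did not stand apart from the libraries of all other groups. Its cortical sum lay within the HD range of 135 to 209 CPM, and HD replicate 2 had 2030 CPM of the choroid plexus markers. In glial markers WT replicate 1 was above the other 11 libraries. It had 2555 CPM of 8 astrocyte markers against 1896 to 2050 CPM, and 11058 CPM of 6 oligodendrocyte markers against 7695 to 9932 CPM. The cGAS-KO replicate 3 had 1059 CPM of the cortical markers, against 310 and 199.8 CPM in its group, and 11.5% of its counts on mitochondrially encoded genes, against 5.30% to 9.03% in the other 11 libraries.

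Of the 28 members, 25 had enough counts to be tested. Gabrp, Gabrr1 and Gabrr3, which encode the pi subunit and rho subunits of the GABA-A family, had too few. Each of these genes had at most 29 counts over the 3 libraries of any group. Gabra6, the alpha6 subunit of cerebellar granule cells, was tested on few counts, with 27 counts in double mutants, 17 in HD, 14 in cGAS-KO and 16 in WT libraries. The remaining 24 members were detected in every library. Per kilobase of exon, the members with the highest levels in WT libraries were Gabbr1 with 111 ± 3.06 CPM per kb (SD, n = 3), Gad2 with 95.9 ± 4.95 CPM per kb and Slc32a1 with 78.1 ± 3.60 CPM per kb. Gabra3 led the GABA-A subunits reported here with 34.1 ± 2.98 CPM per kb, followed by Gabra4 with 22.8 ± 1.54, Gabrb2 with 20.9 ± 1.71, Gabrd with 20.8 ± 2.82 and Gabrb1 with 17.0 ± 0.345 CPM per kb. Gabra4, Gabrb2 and Gabrd did not differ in level beyond the spread of the 3 WT libraries. Gabrr2, the rho2 subunit, had the lowest level of the 24 at 0.882 ± 0.127 CPM per kb.

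The members called in at least 1 knock-in comparison were the delta subunit gene Gabrd, its partner Gabra4, and, in the averaged comparison alone, Gabrg3, which encodes a gamma subunit. Gabrd was called lower in HD than in WT libraries (-39.0%) and in double mutants than in cGAS-KO libraries (-58.5%). Gabra4 was called lower in double mutants than in cGAS-KO libraries (-28.1%), and was not called in HD against WT libraries. In HD against WT libraries, where 4.1% of all 21309 tested genes were called, 1 of the 25 tested members was lower, or 4%, beside 2.67% of all genes, and 0 were higher, beside 1.43% of all genes. In double mutants against cGAS-KO libraries, where 3.96% of all genes were called, 2 of 25 were lower, or 8%, beside 2.52% of all genes, and 0 were higher, beside 1.44% of all genes. Averaged over both cGAS genotypes, 3 members were lower, or 12%, where 7.63% of all genes were lower, and 0 were higher by edgeR, where 5.59% of all genes were. At an unadjusted p under 0.05 in edgeR, 4 members differed in HD against WT libraries (1 of them higher), 8 in double mutants against cGAS-KO libraries (2 higher) and 9 averaged (2 higher), where 18.8%, 17.4% and 27.5% of all genes did. The Wald test of DESeq2 called 0 higher in the HD comparison and 2 higher in each of the others, and its share over all genes is not given here. The median member changed little, with a median log2 change of -0.06 in HD against WT libraries, -0.03 in double mutants against cGAS-KO libraries and -0.02 averaged, beside medians of 0.01, 0.00 and 0.01 over all genes.

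Gabrd lies on the minus strand of chromosome 4 (chr4:155384980-155398112, GRCm38). It measured 23.5, 26.8 and 28.2 CPM in the double mutants, 34.2, 36.9 and 38.5 CPM in HD, 69.8, 68.2 and 51.1 CPM in cGAS-KO and 51.3, 61.1 and 67.4 CPM in WT libraries. Every library with the knock-in allele was below every library without it, and the double mutants were all below the HD libraries. The log2 change was -0.71 ± 0.13 in HD against WT libraries (SE; edgeR adjusted p = 0.0088) and -1.27 ± 0.13 in double mutants against cGAS-KO libraries (edgeR adjusted p = 0.00022). Averaged over cGAS genotypes it was -0.99 ± 0.09 (edgeR adjusted p = 2.77e-05), with a 95% interval of -1.19 to -0.79. Gabrd was the single member whose 6 knock-in libraries did not overlap the 6 without the allele, or 4% of members, where 4.11% of all genes lay apart in that direction and 3.38% in the other. The call in HD against WT libraries was lost without WT replicate 3 (edgeR adjusted p = 0.0535) and without HD replicate 2 (edgeR adjusted p = 0.0503), while the change there was still -0.62 and -0.73. The sum of the projection neuron markers was also lower in these groups, and its part in the Gabrd result was not tested.

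Gabra4 encodes the alpha4 subunit, which occurs with delta in extrasynaptic receptors and is abundant in striatal projection neurons. It measured 120.1, 109 and 115 CPM in the double mutants, 129, 133 and 141 CPM in HD, 153, 161 and 165 CPM in cGAS-KO and 128, 142 and 146 CPM in WT libraries. The double mutants lay below all cGAS-KO libraries, with no overlap, whereas the HD range overlapped the WT range. The cGAS-KO libraries in turn all lay above the WT libraries. The log2 change was -0.48 ± 0.07 in double mutants against cGAS-KO libraries (edgeR adjusted p = 0.00271) and -0.05 ± 0.07 in HD against WT libraries (edgeR adjusted p = 0.779), where the 95% interval was -0.20 to 0.11. The averaged change was -0.26 ± 0.05 (edgeR adjusted p = 0.00465). Both calls of Gabra4 and those of Gabrd in the same comparisons held under every alternative and with each library left out in turn.

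Gabra4 and Gabrb1 lie head to head on chromosome 5, Gabra4 on the minus strand (chr5:71569749-71658308) and Gabrb1, a beta subunit gene, on the plus strand (chr5:71658113-72149037), and their annotated genes overlap by 196 bases. The RefSeq starts of this pair are 387 bases apart. Their promoter windows are shown because Gabra4 was called and its neighbour was not, and that of Gabrg3 because it was the other called member with a window (RefSeq, GRCm38.p6, from 250 bases before to 50 after the start, 5′ to 3′ on the gene's strand). Capitals mark matches to the motifs searched on both strands.
Gabra4, chr5:71658259-71658558, minus: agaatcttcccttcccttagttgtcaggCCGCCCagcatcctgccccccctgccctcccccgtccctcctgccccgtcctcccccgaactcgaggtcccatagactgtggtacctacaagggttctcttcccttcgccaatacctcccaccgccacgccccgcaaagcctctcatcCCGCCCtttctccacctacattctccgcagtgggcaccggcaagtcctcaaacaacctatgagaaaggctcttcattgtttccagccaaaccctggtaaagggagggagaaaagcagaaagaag
Gabrb1, chr5:71657671-71657970, plus: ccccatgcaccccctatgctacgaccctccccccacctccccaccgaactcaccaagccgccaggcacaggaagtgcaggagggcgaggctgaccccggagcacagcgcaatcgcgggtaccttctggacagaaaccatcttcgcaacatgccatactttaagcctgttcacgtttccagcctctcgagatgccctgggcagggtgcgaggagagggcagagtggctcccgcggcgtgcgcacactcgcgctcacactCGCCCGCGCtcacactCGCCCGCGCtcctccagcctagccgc
Gabrg3, chr7:57387166-57387465, minus: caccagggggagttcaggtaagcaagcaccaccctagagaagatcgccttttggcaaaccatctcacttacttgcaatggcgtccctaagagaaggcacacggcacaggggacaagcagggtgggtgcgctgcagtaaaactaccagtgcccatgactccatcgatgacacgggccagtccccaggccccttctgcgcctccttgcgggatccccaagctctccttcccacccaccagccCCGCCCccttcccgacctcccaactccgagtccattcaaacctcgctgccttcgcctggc

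The motifs were the cyclic AMP response element TGACGTCA, held by 1.79% of the 32817 mouse promoter windows, the EGR site GCGNGGGCG (5.56%), the GC box GGGCGG (35.6%) and the TATA box TATAAA (13.6%), where an EGR site followed by G also holds a GC box. The Gabra4 window held 2 GC boxes and the Gabrb1 window 2 EGR matches, both after the RefSeq start, while the Gabrg3 window held 1 GC box. The whole Gabrb1 window, which ends at 71657970, lies before the start of the annotated gene at 71658113. The 3 windows had GC contents of 58.7%, 66.0% and 61.0%, above the median of 52.7% over all windows, and Gabrb1 had 25 CpG dinucleotides beside 12 in Gabra4 and 13 in Gabrg3. Such matches describe letters in a window and not binding.

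Gabrb1 was not called in any comparison. It measured 299.5, 264 and 248 CPM in the double mutants, 239, 209 and 229 CPM in HD, 239, 238 and 315 CPM in cGAS-KO and 239, 238 and 230.1 CPM in WT libraries, and knock-in and other libraries overlapped. Its averaged change was -0.01 ± 0.08 (edgeR adjusted p = 0.936), with a 95% interval of -0.18 to 0.15. The ratio of Gabra4 to Gabrb1 CPM was 0.401 to 0.465 in double mutants, 0.538 to 0.634 in HD, 0.524 to 0.677 in cGAS-KO and 0.537 to 0.633 in WT libraries. The ratio of Gabrd to Gabra4 CPM was 0.195 to 0.245 in double mutants, 0.266 to 0.278 in HD, 0.310 to 0.455 in cGAS-KO and 0.400 to 0.462 in WT libraries, so within a library Gabrd was lower relative to Gabra4 wherever the allele was present. These gene pairs were chosen after their values were seen, and the ratios are given with no test.

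**Figure D1:**
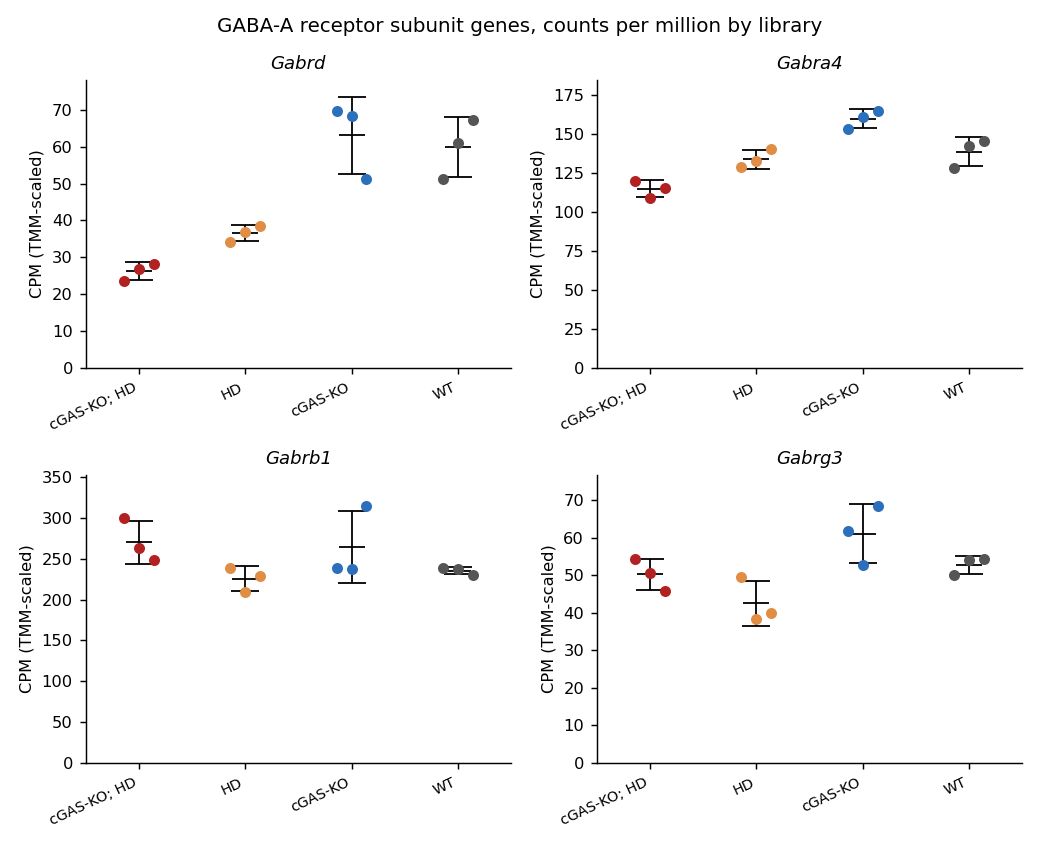
CPM of Gabrd, Gabra4, Gabrb1 and Gabrg3 in each library (points), with the mean and SD of the 3 libraries of a group (bars), for double mutants, HD, cGAS-KO and WT mice from left to right. For Gabrd both knock-in groups lie below 40 CPM and both others above 50 CPM, for Gabra4 the double mutants lie below the other groups, and for Gabrb1 the groups of each knock-in comparison overlap.

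Gabrg3, on chromosome 7 beside Gabra5, encodes the gamma3 subunit. It measured 54.3, 50.8 and 46.0 CPM in the double mutants, 49.5, 38.3 and 39.9 CPM in HD, 61.8, 52.9 and 68.6 CPM in cGAS-KO and 50.1, 54.0 and 54.3 CPM in WT libraries. The HD libraries were all below the WT libraries, but the double mutant range overlapped the cGAS-KO range. Neither single comparison was called, with changes of -0.31 ± 0.11 in HD against WT libraries (edgeR adjusted p = 0.154) and -0.28 ± 0.11 in double mutants against cGAS-KO libraries (edgeR adjusted p = 0.215). The averaged change was called, at -0.29 ± 0.08 (edgeR adjusted p = 0.0288). That call was lost without any one of 7 libraries, namely replicates 2 and 3 of the double mutants, of HD and of WT, and replicate 1 of cGAS-KO, with edgeR adjusted p between 0.0573 and 0.0732.

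The other alpha and beta subunits were not called by edgeR in any comparison of all 12 libraries. Gabra2, an alpha subunit gene of the same chromosome 5 cluster, had an averaged change of -0.28 ± 0.10 (edgeR adjusted p = 0.0921), and its HD libraries, at 55.7 to 68.6 CPM, were all below its WT libraries, at 70.6 to 76.3 CPM. It was called lower without cGAS-KO replicate 2 (-0.36, edgeR adjusted p = 0.0155) and by DESeq2 (adjusted p = 0.0484), and without cGAS-KO replicate 3 its change was -0.19. Gabrb2, a beta subunit gene, had an averaged change of 0.04 ± 0.05, with a 95% interval of -0.07 to 0.15. Gabra5, whose product serves extrasynaptic receptors in the hippocampus and cortex, had an averaged change of -0.20 ± 0.17 (edgeR adjusted p = 0.506). Its level was 54.6, 50.3 and 43.5 CPM in double mutants, 42.4, 38.9 and 35.8 CPM in HD, 46.9, 38.1 and 74.7 CPM in cGAS-KO and 33.3, 52.6 and 57.4 CPM in WT libraries. The highest of the 12 was cGAS-KO replicate 3, which also had the highest cortical marker sum. The lowest was WT replicate 1, with a cortical sum of 159 CPM, but HD replicate 1 had a lower sum, 135 CPM, and a higher Gabra5 level. The part of cortical tissue in these levels was not tested, and 0 of the 9 cortical markers were called by edgeR averaged over cGAS genotypes, with 6 at an unadjusted p under 0.05 and 5 called by DESeq2. Gabrg1, the gamma1 subunit, was higher in all HD libraries (67.0 to 70.9 CPM) than in all WT libraries (52.2 to 59.4 CPM), but was not called (0.33 ± 0.16, edgeR adjusted p = 0.298). Without cGAS-KO replicate 3 Gabrg1 was the 1 member called higher in HD against WT libraries.

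On the X chromosome, Gabre (epsilon subunit), Gabra3 (alpha3) and Gabrq (theta) form a cluster with gaps of 158 and 168 kb. Gabre and Gabrq had the largest positive averaged changes of the 24 members with usable counts, at 0.55 ± 0.21 (edgeR adjusted p = 0.106) and 0.58 ± 0.21 (edgeR adjusted p = 0.0885), and neither passed the threshold. Gabrq measured 41.1, 28.2 and 34.7 CPM in the double mutants, 32.7, 26.6 and 27.4 CPM in HD, 22.3, 22.1 and 14.4 CPM in cGAS-KO and 35.6, 17.7 and 15.1 CPM in WT libraries. Gabre measured 13.6, 10.1 and 7.72 CPM in the double mutants, 6.90, 7.70 and 8.28 CPM in HD, 6.40, 5.61 and 4.05 CPM in cGAS-KO and 10.7, 5.51 and 4.61 CPM in WT libraries. In both genes the double mutants were all above the cGAS-KO libraries, and WT replicate 1 was the highest of the 6 libraries without the allele. Without WT replicate 1 the averaged changes were 0.77 for Gabre (edgeR adjusted p = 0.00699) and 0.81 for Gabrq (edgeR adjusted p = 0.00189), so both were then called higher. The sum of 9 markers of the thalamus, septum and pallidum, which adjoin the striatum, was 413 to 632 CPM in double mutants, 601 to 1121 CPM in HD, 247 to 758 CPM in cGAS-KO and 291 to 764 CPM in WT libraries, with 764 CPM in WT replicate 1, and averaged over cGAS genotypes 0 of the 9 were called by edgeR, 0 by DESeq2 and 0 at an unadjusted p under 0.05. Its part in the Gabre and Gabrq values was not tested. Gabra3, between them, had an averaged change of 0.06 ± 0.10 (edgeR adjusted p = 0.747), and without cGAS-KO replicate 3 it was the 1 member called higher, averaged and in double mutants against cGAS-KO libraries. Libraries with more Xist than Ddx3y counts were 2 of 3 in both knock-in groups and 1 of 3 in both others, and with that class as a term the changes were 0.56 for Gabre and 0.56 for Gabrq.

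**Figure D2:**
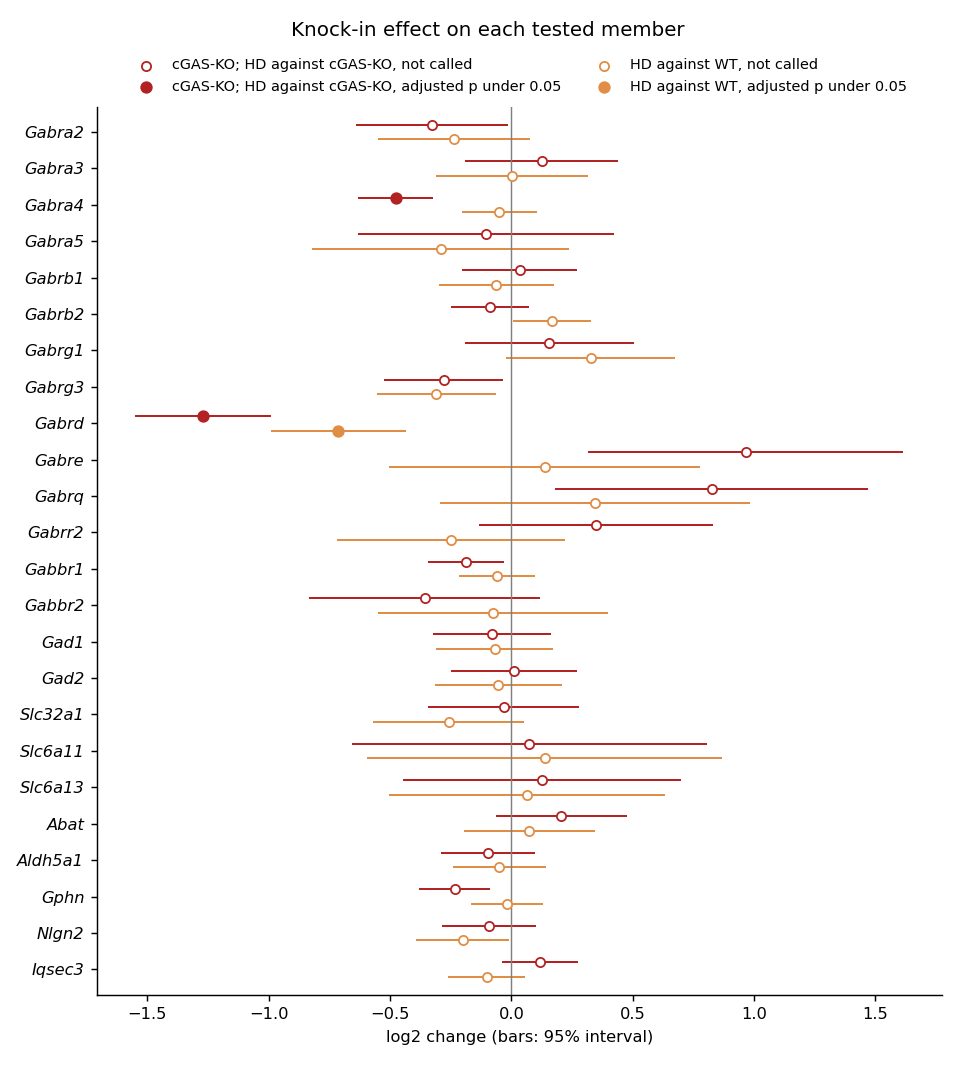
Log2 change of each tested member other than Gabra6 in double mutants against cGAS-KO libraries (upper point of each gene) and in HD against WT libraries (lower point), with 95% intervals (bars) and filled points for an edgeR adjusted p under 0.05. Gabrd is filled in both comparisons, at -1.27 and -0.71, and Gabra4 in the double mutant comparison, at -0.48, while Gabre and Gabrq lie to the right with wide intervals.

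The GABA-B subunits, which form the receptor only together, were not called by edgeR. Gabbr1 measured 785, 755 and 798 CPM in the double mutants, 812, 802 and 861 CPM in HD, 850.5, 891 and 923 CPM in cGAS-KO and 833, 879 and 866 CPM in WT libraries. The double mutants were all below the cGAS-KO libraries, and HD and WT libraries overlapped. Its averaged change was -0.12 ± 0.05 (edgeR adjusted p = 0.136), with a 95% interval of -0.23 to -0.01. DESeq2 called Gabbr1 lower averaged (adjusted p = 0.0196) and in double mutants against cGAS-KO libraries. Gabbr2 measured 246, 197 and 205 CPM in the double mutants, 204, 236 and 293 CPM in HD, 186, 256 and 388 CPM in cGAS-KO and 263, 266 and 244 CPM in WT libraries. Its spread within the cGAS-KO group was wide, the groups overlapped, and the averaged change was -0.22 ± 0.15 (edgeR adjusted p = 0.409). Without cGAS-KO replicate 3, the highest library, it was -0.06.

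The genes that mark a neuron as GABA-releasing were not called by edgeR in any comparison of all 12 libraries, although projection neuron markers were lower with the allele. Gad1 measured 548, 518 and 525 CPM in the double mutants, 581, 472 and 446 CPM in HD, 614, 594 and 474 CPM in cGAS-KO and 526, 527 and 519.9 CPM in WT libraries, and all groups overlapped. Its averaged change was -0.07 ± 0.08 (edgeR adjusted p = 0.6), and the 95% interval in percent was -15.7 to 6.91. Without cGAS-KO replicate 3, the lowest of its group, the averaged change was -0.13, and over all fits that left out 1 library it ran from -0.15 to -0.04. Gad2, which makes the GABA of nerve terminals in particular, measured 697, 597 and 591 CPM in the double mutants, 654, 503 and 473 CPM in HD, 681, 609 and 581 CPM in cGAS-KO and 595, 558 and 538 CPM in WT libraries. The groups overlapped here as well, with an averaged change of -0.02 ± 0.09 (edgeR adjusted p = 0.907) and an interval in percent of -13.3 to 11.9. Both intervals lay above that of Gabrd, which was -56.1 to -42.3. Interneurons also make GABA, and the sum of 9 interneuron markers was 362 to 424 CPM in double mutants, 282 to 358 CPM in HD, 433 to 587 CPM in cGAS-KO and 420 to 468 CPM in WT libraries, with 4 of the 9 called lower averaged over cGAS genotypes.

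Slc32a1, the vesicular transporter gene, measured 189, 200.2 and 209.8 CPM in the double mutants, 212, 177 and 159 CPM in HD, 234, 226 and 152 CPM in cGAS-KO and 229, 218 and 209 CPM in WT libraries. The cGAS-KO replicate 3 was the lowest library of the 12, and the groups of both knock-in comparisons overlapped. The averaged change was -0.15 ± 0.10 (edgeR adjusted p = 0.398), and without cGAS-KO replicate 3 it was -0.23 and was called lower (edgeR adjusted p = 0.0247). Slc32a1 shares 697 exon bases with a gene on the opposite strand. In all, 7 of the 28 members share exon bases with an opposite-strand gene, Gabra4 and Gabrb1 by 46 bases of each other, and no label says whether the counting used strand.

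Of the uptake transporters, Slc6a11, which clears GABA into astrocytes, measured 251, 219 and 278 CPM in the double mutants, 247, 264 and 367 CPM in HD, 236, 339 and 135 CPM in cGAS-KO and 374, 246 and 179.6 CPM in WT libraries. It had the widest relative spread among members above 100 CPM, groups overlapped, and the averaged change was 0.11 ± 0.23 (edgeR adjusted p = 0.823), with a 95% interval of -0.41 to 0.62. Within the WT, HD and cGAS-KO groups its order followed the sum of the thalamus, septum and pallidum markers. That sum was 764, 429 and 291 CPM in WT replicates 1 to 3, 601, 811 and 1121 CPM in HD replicates 1 to 3 and 392, 758 and 247 CPM in cGAS-KO replicates 1 to 3. In the double mutants the order differed, with marker sums of 632, 413 and 514 CPM in replicates 1 to 3 and the highest Slc6a11 in replicate 3. The summed level of 8 astrocyte markers was 2555 CPM in WT replicate 1, the library with the most Slc6a11, and 1896 to 2050 CPM in all others. The part of either marker sum in the Slc6a11 values was not tested. Slc6a13, a transporter of the meninges, was at 2.00 to 4.37 CPM. Abat, the GABA transaminase, was higher in all double mutants (606 to 638 CPM) than in all cGAS-KO libraries (452 to 581 CPM), without passing the test (0.21 ± 0.12, edgeR adjusted p = 0.438). Aldh5a1, the dehydrogenase that completes the breakdown of GABA, lay between 113 and 140.4 CPM in all libraries, with an averaged change of -0.07 ± 0.06 (edgeR adjusted p = 0.508).

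The scaffold genes of inhibitory synapses were not called by edgeR with all libraries. Gphn encodes gephyrin, which anchors GABA-A and glycine receptors. It measured 70.7, 72.1 and 68.3 CPM in the double mutants, 76.2, 70.0 and 70.2 CPM in HD, 85.6, 76.8 and 86.0 CPM in cGAS-KO and 70.6, 71.7 and 76.7 CPM in WT libraries. The double mutants were all below the cGAS-KO libraries (-0.23 ± 0.07, edgeR adjusted p = 0.0811), and HD and WT libraries overlapped (-0.02 ± 0.07, edgeR adjusted p = 0.926). The difference between double mutants and cGAS-KO libraries was called without cGAS-KO replicate 2 (edgeR adjusted p = 0.0475), with genes kept at 1 CPM or more in 3 libraries (edgeR adjusted p = 0.0428) and by DESeq2 (adjusted p = 0.0202). Nlgn2, a cell adhesion protein of inhibitory synapses, was lower in all HD libraries (171 to 182 CPM) than in all WT libraries (191 to 211 CPM), with a change of -0.20 ± 0.09 (edgeR adjusted p = 0.242). Iqsec3, an exchange factor that binds gephyrin, had an averaged change of 0.01 ± 0.05, with a 95% interval of -0.10 to 0.12. Across the tested members, groups lay apart downwards for 4 and upwards for 1 of 25 in HD against WT libraries, or 16% and 4%, where 13.1% and 14.6% of all genes did. In double mutants against cGAS-KO libraries they lay apart downwards for 4 and upwards for 3, or 16% and 12%, where 10.7% and 10.8% of all genes did. For 20 of the 25, the 95% interval of the averaged change lay within 1.5-fold in either direction.

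**Figure D3:**
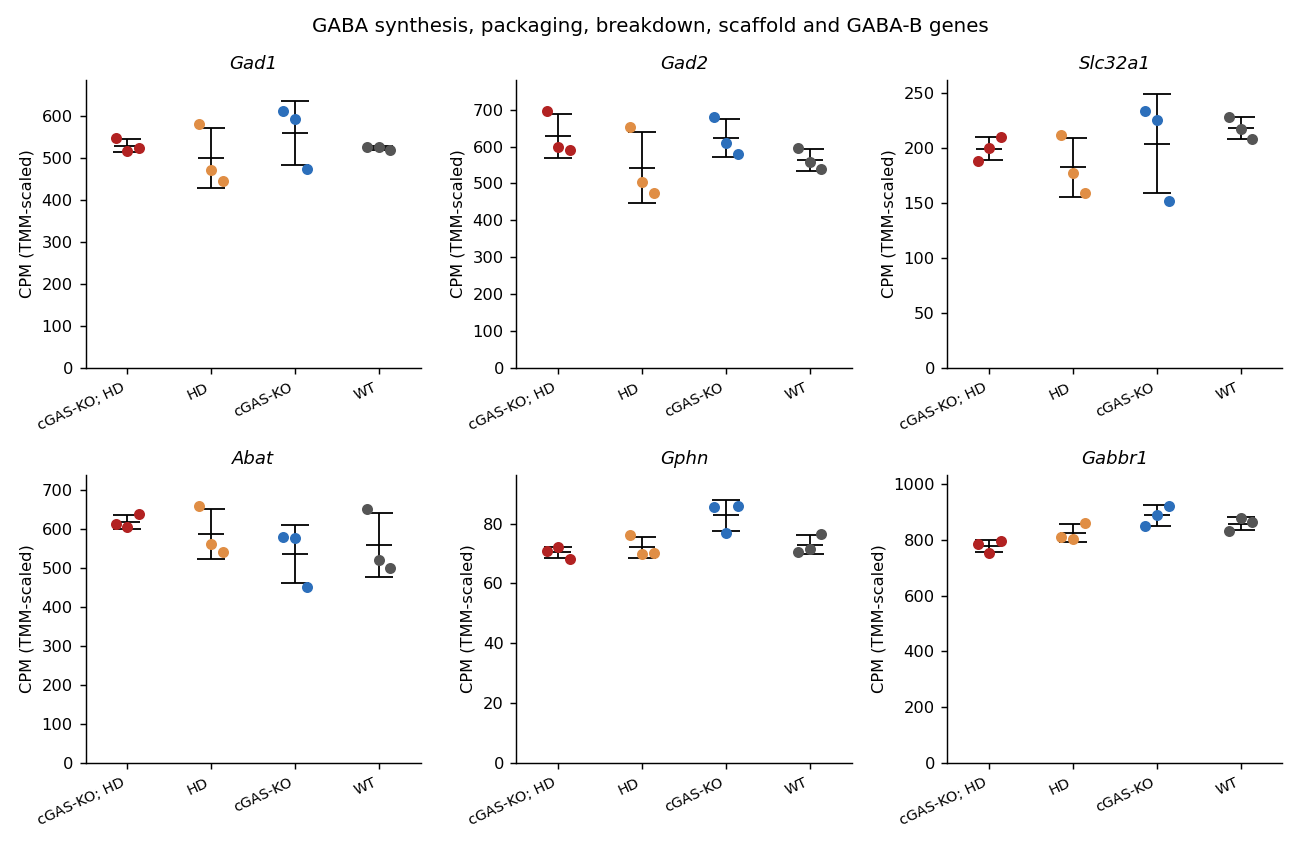
CPM of Gad1, Gad2, Slc32a1, Abat, Gphn and Gabbr1 in each library (points) with the group mean and SD (bars), double mutants, HD, cGAS-KO and WT mice from left to right. For Gad1, Gad2 and Slc32a1 the 4 groups overlap, while for Gphn and Gabbr1 the double mutants lie below the cGAS-KO libraries.

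**Figure D4:**
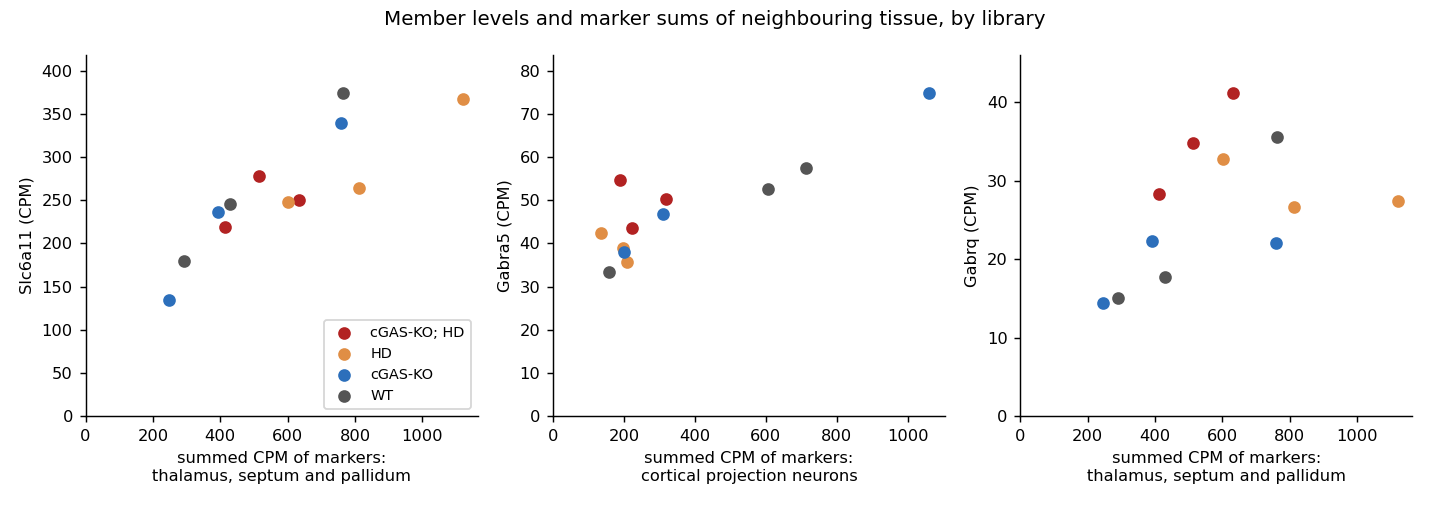
Level of Slc6a11, Gabra5 and Gabrq (vertical axis, CPM) in the 12 libraries against the summed CPM of tissue markers (horizontal axis: thalamus, septum and pallidum for Slc6a11 and Gabrq, cortex for Gabra5), coloured by group. The panels were chosen after the values were seen; WT replicate 1 and cGAS-KO replicate 3 lie at the ends of the cortical axis within their groups.

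Loss of cGAS by itself gave no called member. In double mutants against HD libraries 0 of 25 members were called by edgeR, where 0.00469% of all genes (1 gene) were. An unadjusted p under 0.05 was held by 3 of 25, beside 5.78% of all genes. In cGAS-KO against WT libraries 0 of 25 were called by edgeR, where 0% of all genes were. Here 5 of 25 had an unadjusted p under 0.05, beside 4.28% of all genes. DESeq2 called 0 members in both. Groups lay apart downwards for 3 and upwards for 3 members in double mutants against HD libraries, or 12% and 12%, beside 8.33% and 8.76% of all genes. They lay apart downwards for 1 and upwards for 3 in cGAS-KO against WT libraries, or 4% and 12%, beside 4.53% and 4.25%. Gabrd had a log2 change of -0.48 ± 0.13 in double mutants against HD libraries, with the 3 libraries of each group apart, an unadjusted p of 0.00239 and an edgeR adjusted p of 0.757 over all genes. The change of Gabra4 there was -0.22 ± 0.07 (edgeR adjusted p = 0.757), again with the groups apart, while that of Gabrb1 was 0.26 ± 0.11 (edgeR adjusted p = 0.757). In cGAS-KO against WT libraries the changes were 0.07 ± 0.13 for Gabrd (edgeR adjusted p = 0.939) and 0.21 ± 0.07 for Gabra4 (edgeR adjusted p = 0.919), with the groups apart for Gabra4. Gabrr2 had the most negative change there, -0.84 ± 0.22 (edgeR adjusted p = 0.919), at 1.15, 1.13 and 0.814 CPM in cGAS-KO and 1.92, 2.09 and 1.57 CPM in WT libraries.

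Whether the knock-in effect itself depended on cGAS was tested as the change in double mutants against cGAS-KO libraries minus that in HD against WT libraries. By edgeR 0 of 25 members were called, where 0.00469% of all genes were, and DESeq2 called 0. An unadjusted edgeR p under 0.05 was held by 4 of 25, all with a negative difference, beside 2.84% of all genes in either direction. The difference was -0.56 ± 0.18 for Gabrd, with a 95% interval of -0.95 to -0.17 and an unadjusted p of 0.00873, and -0.43 ± 0.10 for Gabra4, with an interval of -0.65 to -0.21 and an unadjusted p of 0.001. Both missed the threshold after adjustment over all genes (edgeR adjusted p = 1 for each). Gabra4 is therefore called in one knock-in comparison and not in the other without a called difference between them. The difference is computed from the same libraries as both knock-in comparisons, which share none with each other, and for Gabrd all 3 values were negative.

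**Figure D5:**
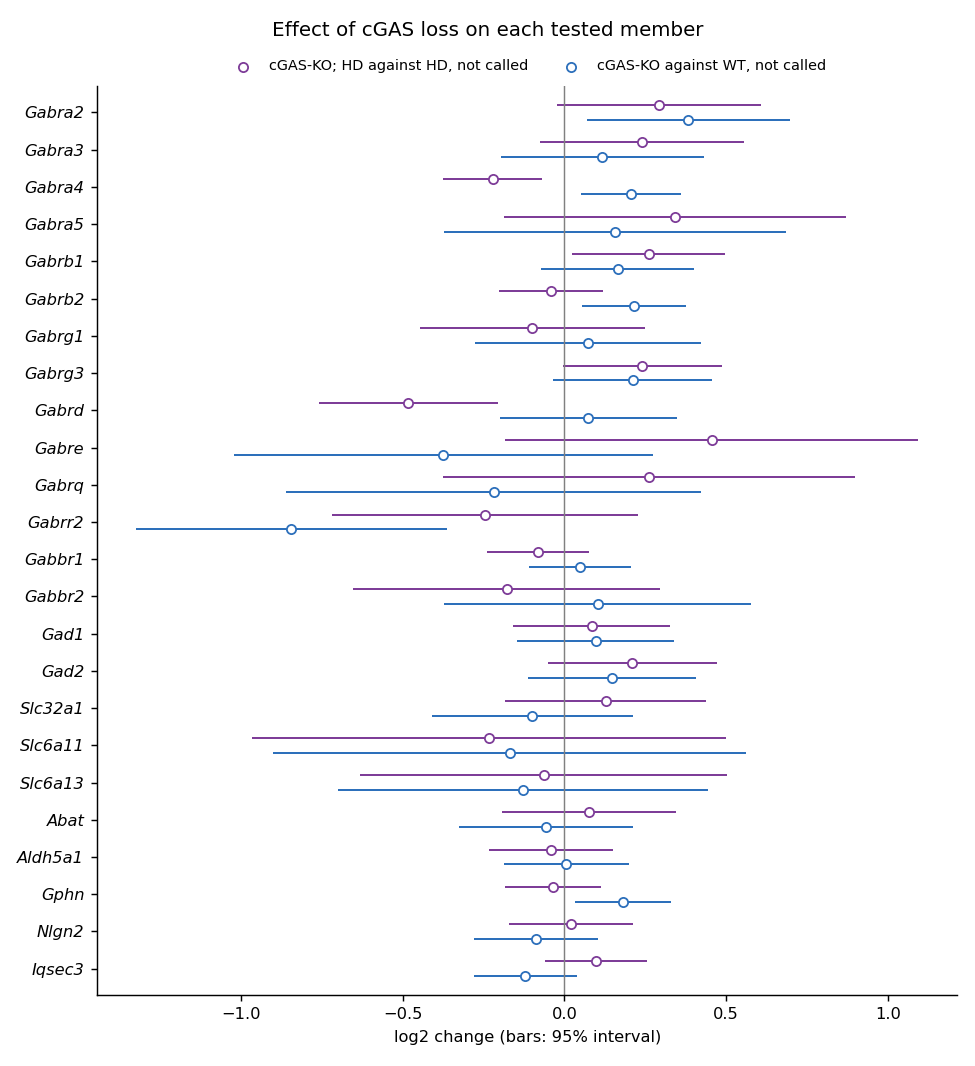
Log2 change of each tested member other than Gabra6 in double mutants against HD libraries (upper point of each gene) and in cGAS-KO against WT libraries (lower point), with 95% intervals (bars). No point is filled, since no plotted member had an edgeR adjusted p under 0.05, and the upper points of Gabrd and Gabra4 lie below 0, at -0.48 and -0.22.

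Other genes of the pathway were read from a list of 38, all tested, which covers receptor accessory proteins, anchoring proteins, chloride transporters and the glutamine supply of GABA synthesis. By edgeR, in HD against WT libraries 1 was higher and 1 lower, and the same 2 genes were called in the same directions in double mutants against cGAS-KO libraries. These were 5.26% of the list in each comparison, where 4.1% and 3.96% of all genes were called. Averaged over cGAS genotypes, 3 were called higher, 6 lower and 29 not, with a median log2 change of -0.05, and 23.7% of the list was called where 13.2% of all genes were. DESeq2 called 6 of the list in HD against WT libraries, 5 in double mutants against cGAS-KO libraries and 13 averaged. The share of all genes that DESeq2 called is not given here, so these counts are not set against it. By edgeR 0 were called for loss of cGAS or for the difference of the knock-in effects, and DESeq2 called 0 in each. In edgeR, 4, 0 and 2 had an unadjusted p under 0.05 in double mutants against HD, in cGAS-KO against WT and for the difference. Over all genes the shares were 5.78%, 4.28% and 2.84%. Kctd12b, a member of the family of GABA-B receptor auxiliary subunits, measured 9.12, 8.44 and 6.97 CPM in the double mutants, 8.39, 9.72 and 9.70 CPM in HD, 5.54, 5.98 and 5.24 CPM in cGAS-KO and 5.82, 4.93 and 4.98 CPM in WT libraries, so every knock-in library was above every other one. Its change was 0.82 ± 0.13 in HD against WT libraries (edgeR adjusted p = 0.00506) and 0.55 ± 0.13 in double mutants against cGAS-KO libraries (edgeR adjusted p = 0.0371). Glul, the glutamine synthetase of astrocytes, measured 1167, 976 and 994 CPM in the double mutants, 949, 968 and 884 CPM in HD, 1289.6, 1313 and 1577 CPM in cGAS-KO and 1329, 1374 and 1439 CPM in WT libraries. Its groups did not overlap either, and its change was -0.56 ± 0.10 in HD against WT libraries (edgeR adjusted p = 0.0088) and -0.41 ± 0.10 in double mutants against cGAS-KO libraries (edgeR adjusted p = 0.0383). Kctd12b was the single gene of the list with all knock-in libraries above all others, and Glul the single one with all below. Each is 2.63% of the list, where 3.38% of all genes lay apart upwards and 4.11% downwards. In the double mutant comparison the calls were lost without any one of 8 libraries for Kctd12b and of 6 for Glul, and the call in HD against WT libraries was lost for Glul without WT replicate 3 (edgeR adjusted p = 0.0522). Of the 8 other alternatives, 4 kept the double mutant call of Kctd12b and 5 that of Glul, with adjusted p reaching 0.13 and 0.131 over all 8. The other genes named by smallest p in the averaged comparison were Plcl2 at -0.34 ± 0.08 (edgeR adjusted p = 0.018), the GABA-B auxiliary subunit gene Kctd16 at -0.68 ± 0.16 (edgeR adjusted p = 0.018), the chloride importer gene Slc12a2 at 0.37 ± 0.09 (edgeR adjusted p = 0.0181) and the glutamine transporter gene Slc38a1 at 0.24 ± 0.06 (edgeR adjusted p = 0.0245). With each of the 12 libraries left out in turn, the call held in 10 fits for Plcl2, 11 for Kctd16, 8 for Slc12a2 and 5 for Slc38a1.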

How the data were processed

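RNA of striatal tissue was made into poly(A)-selected, directional libraries, per the labels' protocols. The authors deposited raw counts by Ensembl gene, 1 file for each of 12 libraries. Aligner, counting rule and genome build were not given in the sources used here. Symbols were added from GENCODE M21 (GRCm38) for 55141 genes (99.4%), and the rest held up to 0.0611% of the counts of a library. Groups were read from the titles. The members and the other gene lists were chosen with earlier results of these data known. Genes matching the symbol rule that are not reported here numbered 3.

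Genes kept by filterByExpr (minimum count 10, minimum total 15) were scaled by TMM and fitted with one mean per group over all libraries by the robust quasi-likelihood model of edgeR 4.0.16 (R 4.3.3), with Benjamini-Hochberg adjustment over all 21309 genes and a threshold of 0.05. Standard errors are the absolute log2 change divided by the square root of the F statistic of that fit. The 95% intervals were built from them. CPM uses TMM-scaled library sizes, and CPM per kb divides it by the union exon length. The model was also run on simulated counts, drawn with the same spread for every gene and with no outlying library. No result given here rests on that run. Values in every library were given for called members and for Gad1, Gad2, Slc32a1, Gphn, Gabbr1 and Gabbr2 by rule, and for Gabrb1, Gabra5, Gabre, Gabrq, Gabrr2 and Slc6a11 after their values were seen; other pathway genes were named as up to 6 called ones by smallest p. Mice are separate animals, per the labels. Alternatives were DESeq2 size factors, other low-count filters, the Wald test of DESeq2 1.42.0, fits of the compared groups alone, a replicate block, a library class by Xist and Ddx3y counts, and fits without single libraries.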

Additional observations from a re-analysis of the deposited data

How the results depend on the processing

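DESeq2 size factors, the other low-count filters and the library class term left every count of called members within 1.5 times of the reported one. The Wald test of DESeq2 called 4 members lower (Gabra4, Gabrd, Gabbr1 and Gphn) and 2 higher (Gabre and Gabrq) in double mutants against cGAS-KO libraries, and 5 lower (Gabra2, Gabra4, Gabrg3, Gabrd and Gabbr1) and 2 higher (Gabre and Gabrq) averaged. DESeq2 also called more of the 38 other pathway genes than edgeR, 5 against 2 in the double mutant comparison and 13 against 9 averaged. Its share over all genes is not given here. Fits of the compared groups alone called 1 higher (Gabrg1) in HD against WT libraries. Without WT replicate 1 and cGAS-KO replicate 3 together, 3 were lower and 2 higher in HD against WT libraries, 3 higher in double mutants against cGAS-KO libraries, and 5 lower and 2 higher averaged. With single libraries left out, the counts ran from 0 to 2 lower and 0 to 1 higher in HD against WT libraries, 2 to 3 lower and 0 to 2 higher in double mutants against cGAS-KO libraries, and 2 to 4 lower and 0 to 2 higher averaged, and stayed at 0 for both cGAS comparisons and the difference. The Gabrd change in cGAS-KO against WT libraries ran from -0.030 to 0.21 and the averaged Gad2 change from -0.11 to 0.013. The causes were not tested. With the replicate number as a block, 2 members (Gabre and Gabrq) were called higher averaged, Kctd12b and Glul lost their calls in the double mutant comparison (edgeR adjusted p = 0.0661 and 0.0802), as they did in fits of the compared groups alone (0.13 and 0.131) and with the library class term (0.0516 and 0.0582) and, for Kctd12b, with no low-count filter (0.0544), and no member lost a call. The labels give no batch or litter that would pair libraries by number. Deviations from the group means correlated at -0.23 to 0.20 over 18 same-number pairs, and 1 of 12 libraries was closest to its own number. With 3 libraries a group these deviations are tied to each other, so they cannot decide whether the numbers pair the libraries. With 3 mice a group, 16 of the 25 averaged intervals hold 0.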
